A study of Oryza sativa with 16 samples.

Results

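The regions described here are the binding regions of OsHOX24 on the short arms of rice chromosomes 4 and 10. They were chosen by position: summits up to 9.7 Mb of chromosome 4 and up to 8.2 Mb of chromosome 10. The stretch from 9.1 to 9.2 Mb of chromosome 4 was left out. That stretch was dense in summits, with a mean of 1.05% of a library's list. Summits of all libraries up to 200 bp apart were merged into a region. This gave 226 regions, 101 on chromosome 4 and 125 on chromosome 10, out of 16253 in the nuclear genome. The long arms of the same chromosomes, set beside them throughout, held 2308 regions. OsHOX24 was mapped by ChIP-seq, that is by sequencing the DNA pulled down with an antibody against the protein, in seedlings 3 weeks old. The groups were desiccated H49, desiccated wild type (WT), H49 kept in water as a control and WT kept in water as a control, each treated for 3 h. H49 is 1 transgenic line that over-expresses OsHOX24; its promoter is not named in the labels, and WT carries the endogenous gene. Each group had 2 ChIP libraries, and the 8 input samples were not analysed here.

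OsHOX24 belongs to subfamily I of the homeodomain-leucine zipper proteins, plant transcription factors that bind DNA as dimers and of which many respond to water deficit. The short arms of rice chromosomes 4 and 10 are known from cytology as largely heterochromatic, rich in repeats and poor in genes. Heterochromatin is compact chromatin that is generally less accessible to transcription factors, and short reads from repeats are harder to place. The files hold no chromatin mark, gene or repeat annotation, so the heterochromatic label itself could not be checked, and positions are those of the rice genome sequence MSU v7.

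The deposited lists give 1 summit per line, the position where a peak is highest, with the −log10 of the authors' p-value. They ranged from 2172 to 9345 nuclear summits, and the median −log10 p was 20.1 in WT desiccation replicate 2 and 6.10 to 7.81 in the other libraries. These values grow with read depth, which is unknown, and can be compared only within a list. They are therefore given as a percentile of the library's own list, where 100 is its strongest summit. Whether replicates were grown from different plants is not stated in the labels, so each p-value reflects just the spread among these libraries.

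The most constant region of the chromosome 4 short arm was Chr4:2086073-2086309, called in all 8 libraries. Its −log10 p was 19.8 and 45.2 in H49 desiccation, 11.4 and 92.2 in WT desiccation, 17.7 and 61.4 in H49 control, and 20.05 and 55.6 in WT control. It stood between percentile 86.4 and 95.2 of every list, and its 8 summits lay within 36 bp. No other region of this arm was called in more than 5 libraries. Those in 5 were Chr4:1147928-1148265, at a mean percentile of 69.1, and Chr4:7876092-7876426, at 57.0. The other 7 of the 10 most recurrent regions of the arm were called in 3 or 4 libraries, at mean percentiles from 60.5 to 89.9. The 89.9 belonged to Chr4:8234559-8234779.

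The chromosome 10 short arm held the other regions common to all 8 libraries, and these are neighbours. Chr10:2759088-2759411 had −log10 p values of 46.0 and 89.2 in H49 desiccation, 16.2 and 97.3 in WT desiccation, 56.8 and 97.1 in H49 control, and 61.1 and 117 in WT control. It stood at percentile 94.4 to 99.3. Chr10:2756575-2757093 had 41.1 and 63.5 in H49 desiccation, 6.78 and 84.4 in WT desiccation, 17.5 and 63.2 in H49 control, and 73.3 and 104 in WT control. It spanned a wider range of percentiles, 60.5 to 99.3, and its lowest was in WT desiccation replicate 1. Both belong to a cluster of 5 regions within 3.38 kb, which held 23 of the 220 summits of this arm (10.5%), 12 in desiccation and 11 in control. A further region of that cluster, Chr10:2756029-2756246, singled out after its values were seen, was called in 4 libraries at a mean percentile of 98.7. These 4 were the libraries numbered 1 in each group.

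Below them, Chr10:3547692-3547970 and Chr10:1788074-1788348 were called in 7 libraries, at mean percentiles of 80.8 and 80.3. Both were missing from WT desiccation replicate 1 and were strongest in H49 control replicate 2, at −log10 p of 208 and 118. The remaining 6 of the 10 most recurrent regions of this arm were called in 5 or 6 libraries, at mean percentiles from 30.8 to 60.9. The lowest was Chr10:2006634-2007048.

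**Figure D1:**
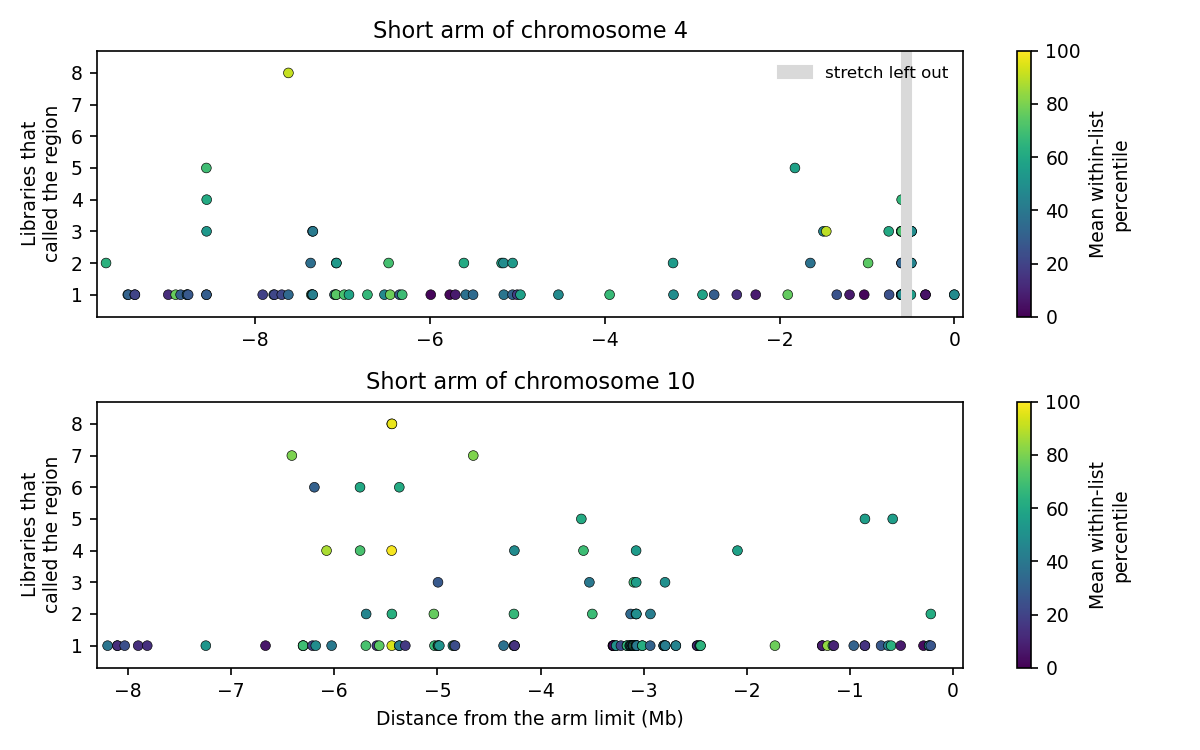
Each point is 1 of the 226 regions, placed by its distance in Mb from the limit between the arms (horizontal) and the number of libraries that called it (vertical), coloured by mean within-list percentile, with the stretch left out in grey. Of all points, 3 reach 8 libraries, 1 on chromosome 4 and 2 on chromosome 10 that overlap in the drawing.

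The main question was whether OsHOX24 summits were as dense on these short arms as on the long arms. With the stretch from 9.1 to 9.2 Mb of chromosome 4 left out, they were sparser in all 8 libraries. On chromosome 4 the short arm held 2.21 ± 0.983 summits per Mb and the long arm 13.1 ± 9.53 (SD, n = 8 libraries). The log2 ratio was −2.49 ± 1.14, which is a density of 0.178 times that of the long arm. On chromosome 10 the short arm held 3.35 ± 1.89 summits per Mb and the long arm 12.1 ± 5.32, a log2 ratio of −1.96 ± 0.83 or 0.257 times. Both ratios passed a two-sided exact permutation test that flips the sign of each library (p = 0.00781, the smallest that 8 libraries allow, and 0.00781 after adjustment over 3 tests). Both arms together held 390 summits, 1.61% ± 1.1 of a library's list, while they made up 4.78% of the nuclear length. With the stretch left out, the share lay below the length in 8 of 8 libraries. In WT desiccation replicate 2 the short arms held 82 of 2172 summits. The 60 summits of the stretch would bring the share of that library above the length. With the stretch from 9.1 to 9.2 Mb counted in the short arm, the ratio of chromosome 4 was −1.64 and did not pass (adjusted p = 0.0547, two-sided exact permutation of signs). The common sign of all 8 libraries on chromosome 4 therefore holds only without this stretch. In WT desiccation replicate 2 the stretch alone held 60 summits. The other 9.6 Mb of the short arm held 32 there, and the 25.7 Mb of the long arm 145. The dense bins of the long arms were kept in this comparison. Arm lengths end at the highest summit position. The inputs were not compared, so mappability and copy number cannot be told apart from binding.

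The size of the difference varied widely between libraries. On chromosome 4 the log2 ratio was −2.92 and −1.62 in H49 desiccation, −3.52 and −0.76 in WT desiccation, −3.52 and −1.92 in H49 control, and −3.96 and −1.73 in WT control. The library numbered 2 was nearer to 0 than the library numbered 1 in each group, and the 4 values of the libraries numbered 2 did not overlap the others. On chromosome 10 it was −2.61 and −2.66 in H49 desiccation, −1.26 and −1.15 in WT desiccation, −2.96 and −0.87 in H49 control, and −2.61 and −1.55 in WT control. There the libraries numbered 1 and 2 overlapped. The labels do not say what the replicate number stands for, and its part in these differences was not tested.

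The contrast depended on which part of the long arm was taken. The 8 Mb of the long arm nearest to the limit on chromosome 4, chosen after the data were seen, held 2.38 ± 0.891 summits per Mb (SD, n = 8). Against that stretch the log2 ratio of the short arm was −0.17 ± 0.65. It was below 0 in 5 libraries and above 0 in 3, and did not pass (adjusted p = 0.461 over 3 tests, two-sided exact permutation of signs). On chromosome 10 the nearest 8 Mb held 9.55 ± 5.83 summits per Mb, of which many lay in the bin from 10.8 to 10.9 Mb. This bin and that from 32.8 to 32.9 Mb of chromosome 4 were the long-arm bins of 100 kb whose mean share of a list reached 0.5%. The 10.8 Mb bin held 50.2% of the long-arm summits of chromosome 10 in WT desiccation replicate 2 and 0 of them in WT desiccation replicate 1 and H49 control replicate 1. Without it the nearest 8 Mb held 4.53 ± 1.98 summits per Mb, and the log2 ratio of the short arm was −0.52 ± 0.64, below 0 in 5 libraries and above 0 in 3 (adjusted p = 0.164 over 3 tests, two-sided exact permutation of signs).

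**Figure D2:**
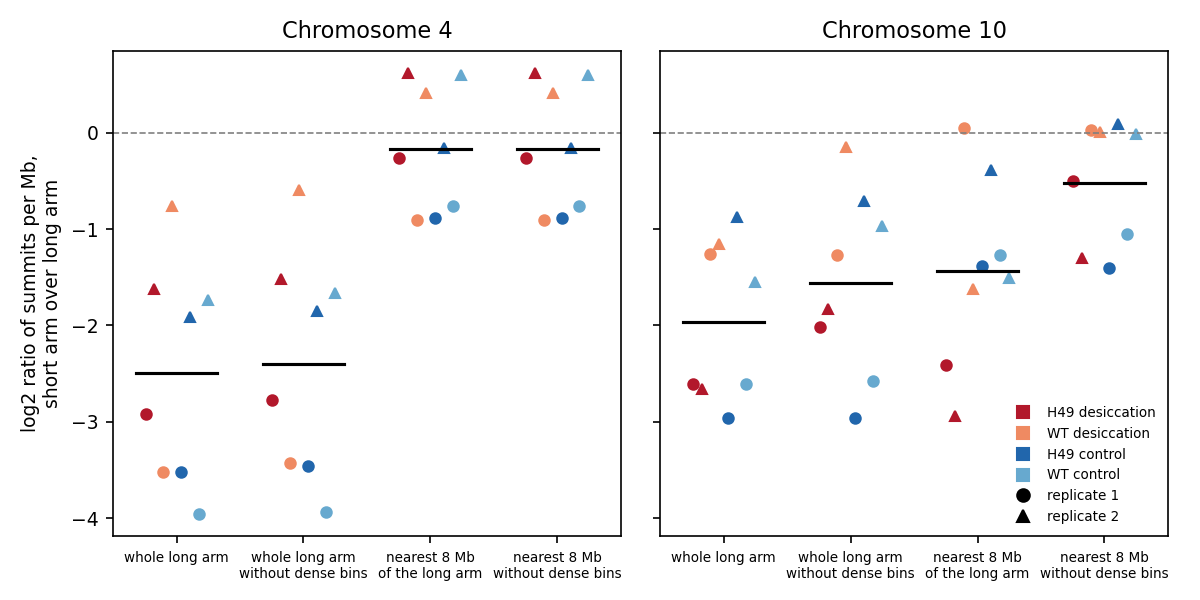
log2 ratio of summits per Mb, short arm over the part of the long arm named on the horizontal axis, with 1 point per library (coloured by group, shaped by replicate number), a black bar for the mean of 8, and dense bins being those of 100 kb with at least 0.5% of a list. Against the whole long arm all points lie below 0, and against the nearest 8 Mb the means are −0.17 on chromosome 4 and −1.43 on chromosome 10, or −0.52 there without the dense bin.

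**Figure D3:**
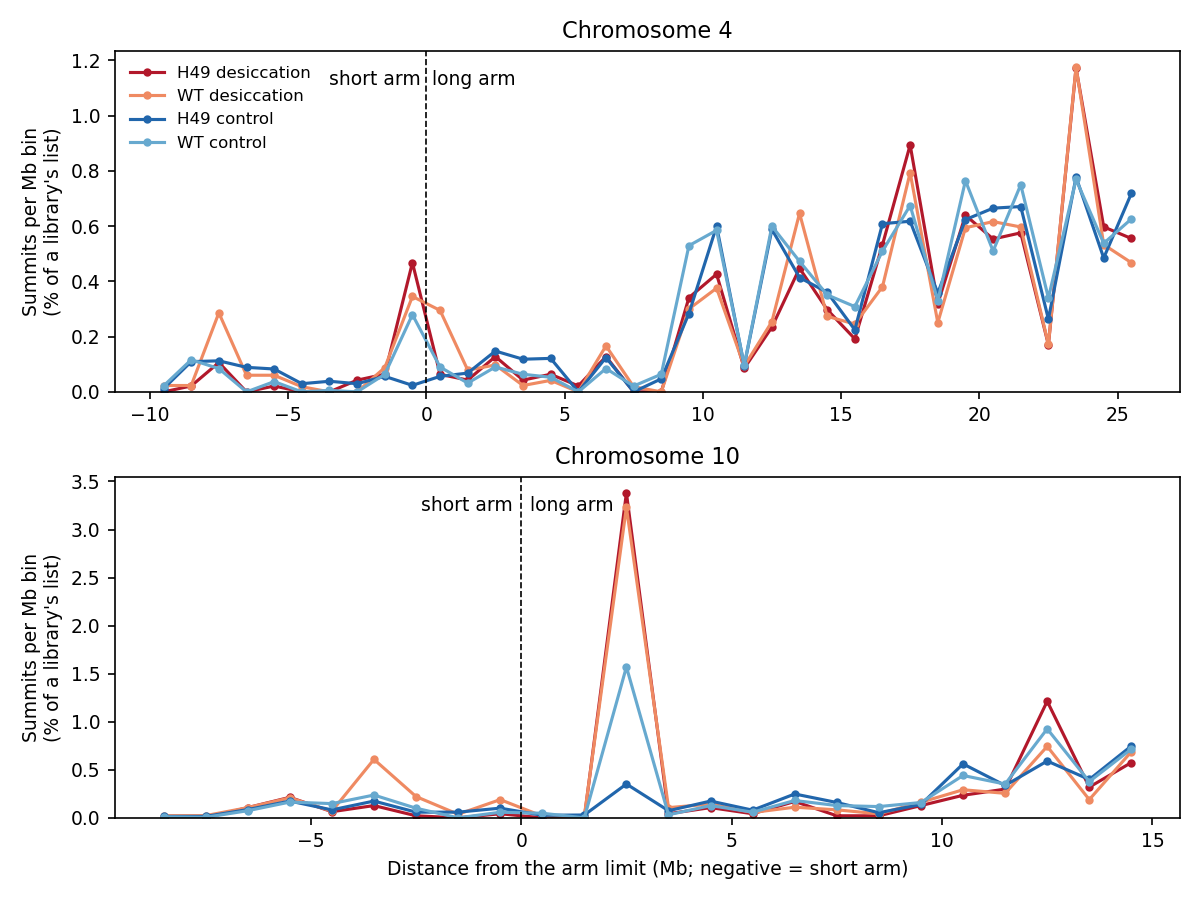
Mean percent of a library's list in each bin of 1 Mb (2 libraries per group) by distance from the limit between the arms, where the outermost bins cover less than 1 Mb and the bin before the limit of chromosome 4 leaves out the stretch from 9.1 to 9.2 Mb. Most bins of the short arms and of the nearest 8 Mb of the long arm are low, with peaks before the limit of chromosome 4, from −4 to −3 Mb on chromosome 10 in WT desiccation, and on the long arm of chromosome 10.

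Within the short arms the summits were unevenly spread. Of 178 bins of 100 kb, 86 (48.3%) held a summit in any library, against 298 of 407 bins (73.2%) on the long arms. Neighbouring regions were a median of 21.5 kb apart on the chromosome 4 short arm and 8.84 kb on that of chromosome 10, against 1.4 and 0.840 kb on the long arms. The 5 fullest bins held 50.6% of the summits of the chromosome 4 short arm, against 14.6% on its long arm. On chromosome 10 the short arm was no more concentrated than the long arm, at 37.3% against 40.8%. The long arms have more bins, 257 against 96 on chromosome 4 and 150 against 82 on chromosome 10. On chromosome 4 the stretch from 5 to 7 Mb was the emptiest, with 2 summits in its first Mb and 5 in its second over all 8 libraries. On chromosome 10 no library had a summit from 8.0 to 8.2 Mb.

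The densest part of the chromosome 4 short arm lay directly beside the stretch left out. The bin with the highest mean share on this arm, from 9.0 to 9.1 Mb, held 26 summits, all of them within 9.58 kb, and the bin from 9.2 to 9.3 Mb held 24, all within 9.84 kb. Together these 23 regions carried 29.4% of the summits of the arm. They held 4 and 16 summits in H49 desiccation, 0 and 12 in WT desiccation, 0 and 0 in H49 control, and 2 and 16 in WT control. These counts varied widely between libraries, also within a group. On chromosome 10 the bin with the highest mean share was that from 5.1 to 5.2 Mb, with 27 summits in 17 regions. It held 0 and 4 summits in H49 desiccation, 0 and 12 in WT desiccation, 0 and 5 in H49 control, and 0 and 6 in WT control, so that only the libraries numbered 2 had summits in it. The bin with the next highest mean share, from 2.7 to 2.8 Mb, held 3 and 2, 4 and 3, 3 and 2, and 3 and 3 summits in the same groups and was even over the libraries.

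Over both short arms together, recurrence over libraries was close to that of the genome. With the bins beside the stretch left out counted in, the chromosomes differed from their long arms in opposite directions. Of the 226 regions, 71 (31.4%) were called in at least 2 libraries, against 35.4% of all regions and 34.7% on the long arms. On chromosome 4 this share was 37.6%, against 32.2% on its long arm. It leaned on the bins beside the stretch left out. Of the 38 such regions of this short arm, 7 lay from 9.0 to 9.1 Mb and 9 from 9.2 to 9.3 Mb. These bins held 13 and 10 regions in all. On chromosome 10 it was 26.4%, against 39.4%. Those called in all 8 libraries numbered 3 (1.33%), against 1.68% of all regions. They were 0.99% against 1.79% on the long arm of chromosome 4, and 1.6% against 0.377% on chromosome 10. Those called in 1 library only numbered 155 (68.6%, against 64.6% of all regions). H49 control replicate 2 alone accounted for 43 of the 155 and WT desiccation replicate 2 for 42, and the shares of a library's short-arm regions found in no other library ran from 9.52% in H49 desiccation replicate 1 to 59.7% in H49 control replicate 2. Where a region was called in at least 2 libraries, its summits spread over a median of 53 bp, against 95 bp on the long arms. On the short arms the median was 93 bp for regions called in at least 4 libraries. The arms were not matched for the number of libraries or for density, and the difference was not tested.

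The share of regions that a replicate had in common with the other of its group was, on average, lower on the short arm of chromosome 4 than on its long arm, though the difference could not be tested to the threshold. In H49 desiccation the share found in the other replicate was 30.0% and 12.5% on the short arm, against 41.6% and 42.6% on the long arm. In WT desiccation it was 22.2% and 6.25% against 16.3% and 31.5%. In H49 control it was 38.5% and 17.2% against 34.6% and 47.2%, and in WT control 27.3% and 19.4% against 16.3% and 54.4%. The short-arm shares rest on few regions: 3 of 10 and 3 of 24 in H49 desiccation and 2 of 9 and 2 of 32 in WT desiccation. In H49 control they were 5 of 13 and 5 of 29, and in WT control 6 of 22 and 6 of 31. Shares within a group thus differ only through the number of regions called. The mean difference was −13.9 ± 4.85 percentage points (SD, n = 4 groups, averaging the 2 libraries of each), below 0 in 4 of 4 groups. The single libraries did not all share this sign. Among those numbered 1 the difference was −11.6 points in H49 desiccation, 5.92 in WT desiccation, 3.87 in H49 control and 10.9 in WT control. Among those numbered 2 it ran from −35.0 to −25.2 points. On chromosome 10 the share in WT control was 45.2% and 35.0% on the short arm, against 17.1% and 27.7% on the long arm. In H49 control the libraries went opposite ways, at 72.7% (8 of 11) and 18.6% (8 of 43) on the short arm, against 27.1% and 29.4% on the long arm. The mean difference there was 10.1 ± 9.1 points and above 0 in 3 of 4 groups. The two-sided exact permutation p from sign flips was 0.125 and 0.25, adjusted 0.375 for both over 3 tests. With 4 groups this test cannot go below 0.125, so neither difference could pass.

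A region is termed confident in a group if both of its replicates called it. On the short arms 27 of 226 (11.9%) were confident in at least 1 group, against 15.7% of all regions. There were 8 in H49 desiccation (3.54%, against 5.8%), 5 in WT desiccation (2.21%, against 3.27%), 13 in H49 control (5.75%, against 8.78%) and 20 in WT control (8.85%, against 9.11%). The 3 regions common to all libraries were the ones confident in all 4 groups. All 5 confident WT desiccation regions were also confident in WT control, where they made up 25% of 20; on the long arms these shares were 82.4% and 20.2%. In H49 the treatments had 5 confident regions in common, 62.5% of those of desiccation and 38.5% of those of control, against 43.7% and 34.6% on the long arms.

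The rank of the summits within their lists was also compared between arms. The median percentile of short-arm summits was 50.8 ± 6.81 on chromosome 4, against 44.8 ± 5.25 on its long arm (SD, n = 8), and 61.7 ± 14.6 on chromosome 10, against 48.6 ± 13.04. The short arm stood higher in 6 of 8 libraries on each chromosome, by 6.04 ± 7.54 and 13.1 ± 24.5 percentile points. The two-sided exact permutation p from sign flips was 0.0625 on chromosome 4 and 0.188 on chromosome 10, both 0.188 after adjustment over 3 tests, so neither passed. With the bins that held at least 0.5% of a list left out, chromosome 4 passed at 9.55 percentile points (adjusted p = 0.0469, two-sided exact permutation of signs), and with the upper 50% of each list it went the other way, at −4.42 points.

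The difference in rank was uneven on chromosome 10. H49 desiccation replicate 1 and H49 control replicate 1 had short-arm medians at percentile 83.4 and 82.2, from 11 summits each, and WT desiccation replicate 2 had 41 from 50 summits. That was below the long-arm median of 66.1 in the same library, and H49 desiccation replicate 2 was also lower on the short arm, at 58.5 against 65.7. Over both chromosomes WT desiccation replicate 2 was the only library below 0, at −17.6 points. Without it the mean difference was 13.7 percentile points (adjusted p = 0.0469 over 3 tests, two-sided exact permutation of signs, 7 libraries). The 7 values left all had the same sign, so p was the smallest that this test allows. That outcome followed from which library was removed, and no conclusion is drawn from it.

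**Figure D4:**
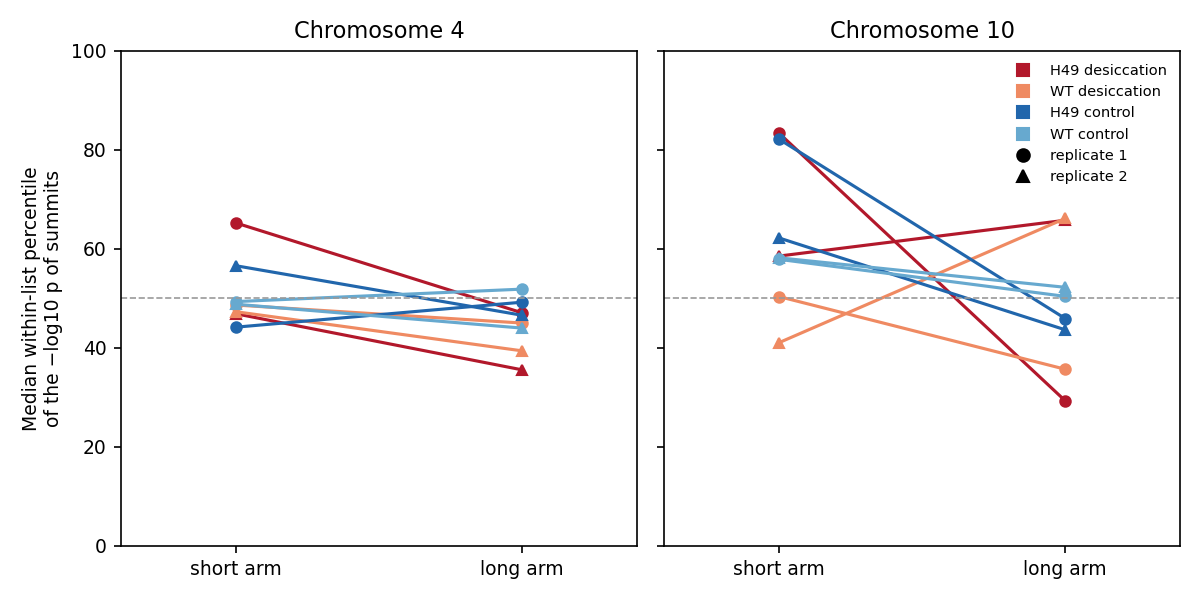
Median within-list percentile of the −log10 p of summits on the short arm (left) and long arm (right) of each chromosome, with 1 line per library, coloured by group, and a dashed line at the middle of a list. On chromosome 10 the lines cross: the short-arm medians run from 41 to 83.4 and the long-arm medians from 29.3 to 66.1.

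Some short-arm regions were called mainly in the libraries numbered 2. This was noticed in the data and not tested. Of the 226 regions, 16 (7.08%, against 1.57% of all regions) were called in at least 3 of the 4 libraries numbered 2 and in none of those numbered 1. On chromosome 4 they were 10 of 101 short-arm regions (9.90%), against 7 of 1512 (0.463%) on the long arm. On chromosome 10 they were 6 of 125 (4.8%), against 48 of 796 (6.03%) on the long arm. Of the 10 on chromosome 4, 7 lay within 9.0 to 9.3 Mb, beside the stretch left out. H49 control replicate 2 lacked 13 of the 16. The highest of them was Chr10:2124670-2124909, called in all 4 at −log10 p of 24.2 in H49 desiccation, 67.4 in WT desiccation, 19.5 in H49 control and 47.4 in WT control, a mean percentile of 87.3. In the other direction 2 regions (0.885%, against 1.34% of all regions) were called in at least 3 libraries numbered 1 and in none numbered 2. One of them was Chr10:2756029-2756246, which lies 328 bp from a region called in all 8 libraries.

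Whether desiccation moved summits towards or away from the short arms was asked with the short-arm share, the percent of a chromosome's summits that lie on its short arm. The shares did not differ between treatments by more than their spread. On chromosome 4 the share was 4.72% and 10.8% in H49 desiccation and 3.15% and 18.1% in WT desiccation, against 3.16% and 9.01% in H49 control and 2.35% and 10.1% in WT control. The groups overlap. The mean was 9.19% ± 6.79 in desiccation and 6.15% ± 3.96 in control (SD, n = 4 each), a difference of 3.03 percentage points (exact two-sided permutation p = 0.429, adjusted 1 over 3 tests, smallest possible p 0.0286). The difference moved with the stretch from 9.1 to 9.2 Mb and its surroundings: with the stretch counted in the short arm it was 10.2 points (exact two-sided permutation p = 0.257, adjusted 0.686), and with a further 20 kb on either side left out it was 0.643 points. Without WT desiccation replicate 2 it was 0.0705 points, without WT control replicate 1 it was 1.77 points, and without WT desiccation replicate 1 it was 5.05 points. On chromosome 10 the mean was 13.6% ± 6.41 in desiccation and 13.4% ± 7.55 in control, a difference of 0.234 points (exact two-sided permutation p = 1, adjusted 1). Without H49 control replicate 1, WT control replicate 1 or either WT desiccation library this difference was below 0, from −1.41 to −2.03 points.

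Within each genotype, the desiccation difference on chromosome 10 had the opposite sign to that in the other. In WT the share was 18.6% and 19.8% in desiccation, above 8.22% and 15.7% in control, and the groups did not overlap. In H49 it was 8.21% and 7.96% in desiccation, and both lay between the 6.59% and 23.0% of control. The desiccation difference was −6.71 points in H49 and 7.17 points in WT. The difference between the genotypes, −13.9 points, did not pass (exact two-sided permutation of genotype within treatment, p = 0.167, adjusted 0.5 over 3 tests). This test cannot go below 0.0556.

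**Figure D5:**
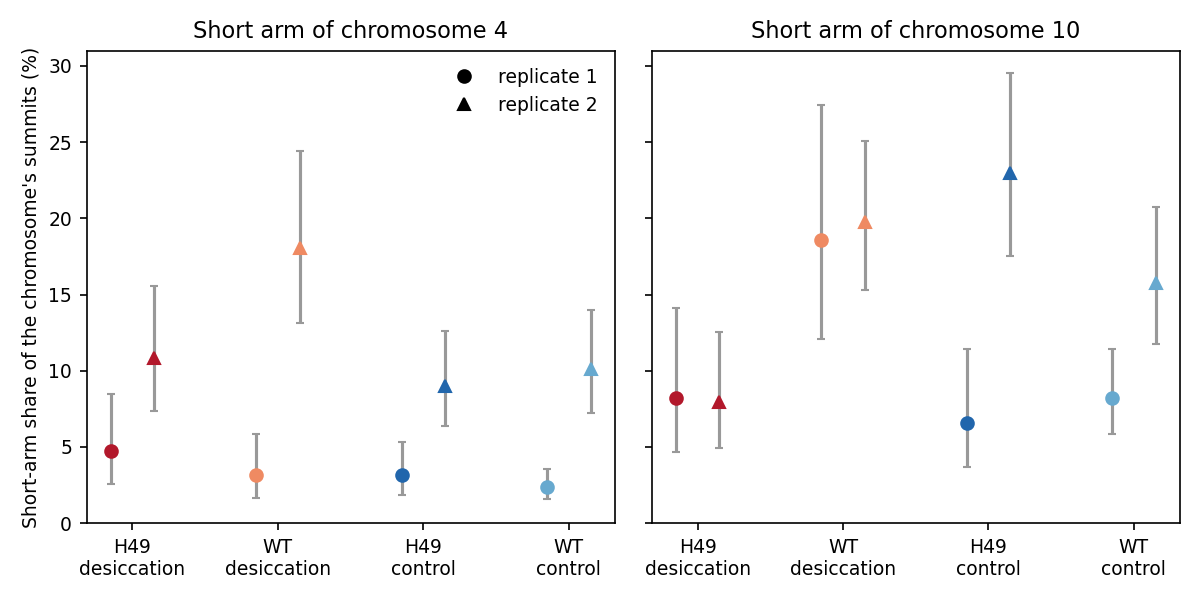
Percent of the summits of chromosome 4 (left) and chromosome 10 (right) that lie on the short arm, 1 point per library, with 95% Wilson intervals that cover counting error only. On chromosome 4 the libraries numbered 2 lie at 9.01% or above and those numbered 1 at 4.72% or below in all 4 groups.

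Over-expression of OsHOX24 was addressed in the same way. On chromosome 4 the mean short-arm share was 6.92% ± 3.58 in H49 and 8.42% ± 7.32 in WT (SD, n = 4 each), a difference of −1.49 points (exact two-sided permutation p = 0.829, adjusted 0.829 over 3 tests). On chromosome 10 it was 11.4% ± 7.74 in H49 and 15.6% ± 5.18 in WT, a difference of −4.13 points (exact two-sided permutation p = 0.4, adjusted 0.829). Within desiccation both H49 libraries of chromosome 10 lay below both WT libraries, a difference of −11.1 points. Within control the H49 libraries lay on either side of the WT libraries and the difference was 2.81 points. The chromosome 4 difference rested on WT desiccation replicate 2, without which it was 1.73 points.

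Regions with a summit in 3 or more of the 4 libraries of one treatment or genotype and in 0 of the other were few, as they were over the whole genome. Only 1 of 226 had a summit in 3 or more desiccation libraries and in 0 control libraries (0.442%, against 0.418% of all regions), and it was Chr4:9090411-9090968. It lay beside the stretch left out and low in its lists, at a mean percentile of 26.0 and −log10 p of 3.85 and 4.83 in H49 desiccation and 23.9 in WT desiccation replicate 2. The opposite set held 3 regions (1.33%, against 2.66% of all regions). Chr4:1151781-1152087 was called in all 4 control libraries, at −log10 p of 11.8 and 4.56 in H49 and 19.2 and 7.66 in WT. Chr4:1150526-1150788 lies 992 bp from it and was missing from WT control replicate 1, at 8.54 and 6.75 in H49 control and 6.91 in WT control replicate 2. Both belong to a cluster of 5 regions within 4.16 kb that held 12 summits in control libraries and 2 in desiccation libraries. The third was Chr10:4673940-4674244, at 16.9 in H49 control replicate 2 and 4.96 and 5.2 in WT control.

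By genotype, 1 region (0.442%, against 0.246% of all regions) had a summit in 3 or more H49 libraries and in 0 WT libraries. It was Chr4:8234559-8234779, which stood at percentile 85.7 to 92.1 in both H49 control libraries and H49 desiccation replicate 1, and its 3 summits lay within 20 bp. No region (0%, against 0.234% of all regions) had one in 3 or more WT libraries and in 0 H49 libraries. Of the 226 regions, 58 had a summit under both treatments, 46.4% of the 125 called in desiccation and 36.5% of the 159 called in control. Over all nuclear regions these shares were 57.9% and 26.0%. Regions called in desiccation libraries alone made up 29.6% on the short arms, against 15.9% of all regions. Of these 67 regions, 42 were called in WT desiccation replicate 2 and in no other library. Regions called in control libraries alone made up 44.7%, against 62.2% of all regions. Between genotypes 57 were shared, 49.1% of the 116 called in H49 and 34.1% of the 167 called in WT, against 59.4% and 37.7% over all nuclear regions. A summit missing from a list was not called, which does not show that the site was unbound.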

How the data were processed

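Per the labels, the authors used NGS QC Toolkit to filter reads, Bowtie2 to map them to MSU v7 and MACS2 to call peaks. The submitters' processing notes list MACS2 2.1.1.20160309. The deposited values are −log10 p per summit, a unit read from the MACS2 summit format, a lowest value close to 3 in every list and a tag in the peak names read as a threshold of 0.001. A Bedops step for confident peaks is also mentioned; no source used here says if it shaped these lists or if inputs served as background. Each library had its own list. In 2 lines outside both chromosomes the peak name was damaged, and they were kept.

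From the lists, 29684 summits on 12 chromosomes were used. Windows of 100 bp on each side of a summit sharing at least 1 bp were joined; a region was called in a library that had a summit in it. Percentiles used all nuclear summits of a list, with ties averaged. Exact sign-flip and permutation tests were run in Python 3.11.15 with numpy 2.4.6 and pandas 2.3.3 and checked on simulated data, with Benjamini-Hochberg adjustment over chromosome 4, chromosome 10 and both. Regions were named by rule: per short arm the 10 called in most libraries, ties ordered by mean percentile, and up to 8 of each set confined to one side. The members, comparisons and rule were chosen with earlier results of these data known. Planned searches for motifs and genes were not run, since no genome or annotation of this build was used here. No list shared a line of equal position and value with another.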

Additional observations from a re-analysis of the deposited data

Results flagged for a closer look

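The stretch of chromosome 4 from 9.1 to 9.2 Mb, which the choice of regions left out, held 213 summits, 6.90% of all summits of that chromosome. It held 18 and 59 summits in H49 desiccation, 0 and 60 in WT desiccation, 0 and 9 in H49 control, and 2 and 65 in WT control. The 5 libraries with 9 or more were flagged by a fixed limit of 3 summits, and the 4 numbered 2 are among them. The stretch was already known to be dense and the limit ignores list size, so the flag is no test. The short arm beside it differed between the same libraries, and the part of this stretch in that was not tested.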

How the results depend on the processing

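The mean density deficit kept its direction under every alternative run, with a mean log2 ratio on chromosome 4 from −3.48 to −0.17. With 1 library left out it ran from −2.74 to −2.28 on chromosome 4, −2.11 to −1.82 on chromosome 10 and −2.44 to −2.08 over both, and still passed. It no longer passed on chromosome 4 with the stretch from 9.1 to 9.2 Mb kept (−1.64), or against the nearest 8 Mb (−0.17, with or without dense bins); without dense bins this held on chromosome 10 (−0.52) and over both (−0.40) too. In the libraries numbered 1 alone it was −3.48, −2.36 and −3.00 on chromosome 4, chromosome 10 and both, and in those numbered 2 it was −1.51, −1.56 and −1.49, where an exact permutation test on 4 libraries cannot go below p = 0.125. The rank difference passed on chromosome 4 (9.55) and over both (14.9) without dense bins, and on chromosome 4 (11.4) with equal numbers of the strongest summits; it turned on chromosome 4 with the upper 50% of each list (−4.42) and on chromosome 10 in the libraries numbered 2 (−1.95). With 1 library left out it ran from 4.31 to 7.63, 7.23 to 18.6 and 5.78 to 13.7 percentile points. The recurrence difference over both turned with windows of 50 bp (0.364 points) and ran from −4.51 to 0.102 with 1 library left out, with −14.9 to −11.5 on chromosome 4 and 7.02 to 13.7 on chromosome 10.

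None of the treatment or genotype differences passed under any alternative. The treatment difference of chromosome 10 turned without 1 Mb beside the limit (−0.166 points), with equal numbers (−3.10), with the upper 50% (−2.16, and −0.869 over both) and in the libraries numbered 2 (−5.51). With the upper 50% the genotype difference was 3.23 on chromosome 10 and 1.49 over both, and in the libraries numbered 1 it was 1.19 on chromosome 4. With the stretch kept, the difference of treatment effects between H49 and WT was 6.73 on chromosome 4 and 0.671 over both. With 1 library left out, the treatment difference ran from 0.0705 to 5.05 on chromosome 4, −2.03 to 3.44 on chromosome 10 and −1.22 to 3.46 over both; the genotype difference from −3.52 to 1.73, −7.99 to −2.52 and −4.47 to 0.542; and the difference of treatment effects from −10.2 to 4.76, −22.1 to −5.68 and −12.1 to −0.0893. Regions confined to desiccation fell to 0 with windows of 50 bp, the upper 50%, a minimum −log10 p of 5 or 20 kb beside the stretch left out; those confined to H49 were 2 with equal numbers or the upper 50%; regions confident in at least 1 group were 16 and 13 in these settings. With 1 library left out and 2 of the remaining 3 required, the counts ran from 1 to 3 for desiccation, 3 to 9 for control, 1 to 2 for H49 and 0 to 11 for WT. The highest came without WT desiccation replicate 1 for desiccation (3) and WT (11) and without H49 control replicate 2 for control (9). The cause of these changes was not tested.

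Whether replicate numbers pair the libraries is not given by the labels. Over 2556 bins of 100 kb the deviations of same-numbered libraries correlated above 0.1 in 5 of 6 pairs of groups and at 0.0844 in the other (highest 0.417), short of all pairs, so they were not treated as paired. Within a number and genotype the chromosome 4 share was higher in desiccation than in control by 1.55, 1.80, 0.796 and 7.98 points. With a replicate block the treatment difference kept its value of 3.03 points on chromosome 4 (exact permutation p = 0.111, adjusted 0.333) and the genotype difference was −4.13 on chromosome 10 (exact permutation p = 0.389); the block changed no call. Settings that need a genome were not run. List depth limits the counts: the short arms held 21 to 82 summits per library.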
